A study of Mus musculus with 12 samples.

Results

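Chemokine ligands were followed in ARG1+ and ARG1- microglia of the mouse brain, with 9 genes taken as members: *Ccl2*, *Ccl3*, *Ccl4*, *Ccl6*, *Ccl7*, *Ccl9*, *Ccl12*, *Cxcl10* and *Cxcl16*. They are CC and CXC chemokines of myeloid cells, found by their symbols, and 9 of 55487 genes in the table. All 9 passed the filter on low counts. The libraries came from YARG mice at postnatal day 13, which carry a yellow fluorescent reporter allele in every group. Per the methods of the study, tissue ventral to the corpus callosum was taken, without the olfactory bulb. Its CX3CR1+ CD206- cells were sorted by the reporter into ARG1+ and ARG1- microglia. The brains of several mice of a sex were pooled per litter, and both populations were sorted from such pools. The 12 libraries form 4 groups of 3: ARG1- females (replicates 1, 2 and 13), ARG1- males (5, 6 and 14), ARG1+ females (7, 8 and 15) and ARG1+ males (11, 12 and 16). Libraries of the 2 populations may thus share a pool, but the labels do not give which ones do, so no pairs were formed and P values measure the spread between libraries.

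Chemokines are small secreted proteins that guide leukocytes along gradients by way of G-protein-coupled receptors. They are grouped by their first conserved cysteines, which are adjacent in CC ligands and separated by a single residue in CXC ligands. Microglia make several CC ligands and carry receptors for some of them, and in the injured or infected brain these ligands help to draw monocytes and lymphocytes into the tissue. CCL2, CCL7 and CCL12 belong to the monocyte chemoattractant proteins, which act on CCR2. CCL3 and CCL4 are the macrophage inflammatory proteins MIP-1α and MIP-1β, and CCL3 acts on CCR1. CCL6 and CCL9 are rodent ligands of CCR1, CXCL10 is an interferon-induced ligand of CXCR3, and CXCL16 is a membrane-bound ligand of CXCR6.

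Total counts lay between 28356659 and 60625170 per library. Levels are given as CPM, which are counts per 1000000 of a library's TMM-scaled total, and 3 counts, taken as the limit of detection, equal at most 0.102 CPM. Reads carry no molecular identifiers, so this limit covers counting error only. All 10 genes of a microglia marker list were tested. Their summed level was 38157 to 49004 CPM in ARG1+ and 48478 to 64310 CPM in ARG1- libraries. Of these markers, *P2ry12*, *Tmem119*, *Siglech*, *Gpr34*, *Olfml3*, *Fcrls* and *Aif1* were lower in ARG1+ microglia, *Sall1* was higher, and *Csf1r*, the most abundant, and *Cx3cr1* did not pass the test. In such bulk samples, fewer cells of a kind and less RNA per cell cannot be told apart.

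The first comparison asked which ligands differ between ARG1+ and ARG1- microglia of the same area. *Ccl3* and *Ccl4* were higher in ARG1+ microglia, *Ccl12* was lower, and the other 6 members did not pass the test. Each gene was fitted by edgeR's quasi-likelihood test over all 12 libraries with sex as a second term, and P values were adjusted by the Benjamini–Hochberg method over 16908 genes with a limit of 0.05. Among all genes tested, 6.44% were higher in ARG1+ microglia and 9.42% were lower. The median log2 fold change of the members was 0.19, beside 0.06 for all genes tested.

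**Figure D1:**
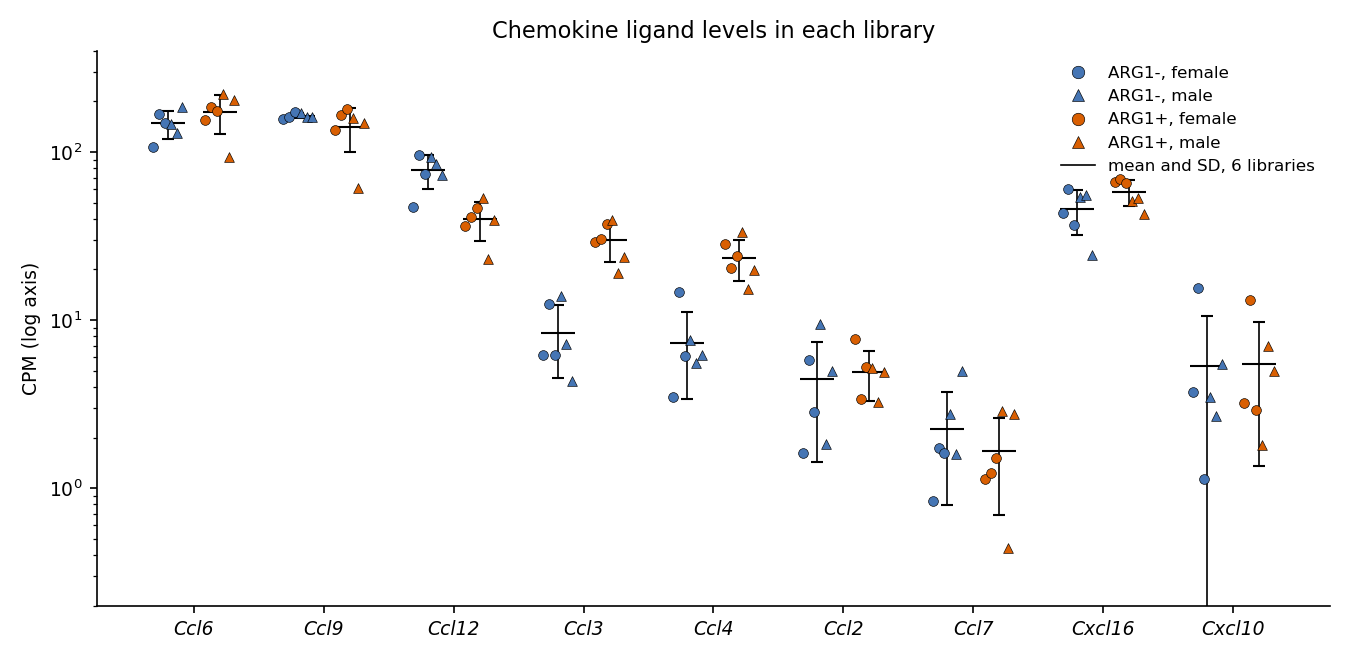
Level of each ligand in CPM on a log axis, with 1 point per library (circles, females; triangles, males; blue, ARG1-; orange, ARG1+) and the mean and SD of 6 libraries as bars; an SD larger than its mean runs to the foot of the axis. The ARG1+ points of *Ccl3* (19.1 to 39.3 CPM) and *Ccl4* (15.3 to 33.2 CPM) lie above every ARG1- point, and those of *Ccl12* (22.9 to 53.5 CPM) lie mostly below.

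*Ccl3* (ENSMUSG00000000982), on the reverse strand of chromosome 11 in GRCm38 (chr11:83647844-83649355), had 6.21, 12.5 and 6.17 CPM in ARG1- females and 13.9, 7.22 and 4.35 CPM in ARG1- males. In ARG1+ females it had 29.2, 30.3 and 37.1 CPM, and in ARG1+ males 39.3, 19.1 and 23.8 CPM. Every ARG1+ library lay above every ARG1- library, a pattern found in 3.48% of all genes tested. The mean rose from 8.40 ± 3.88 to 29.8 ± 7.68 CPM (6 libraries each, SD), a log2 fold change of 1.82 (SE 0.31, 95% interval 1.15 to 2.49, adjusted p = 0.00258, edgeR). The fitted change is 3.53-fold.

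*Ccl4* (ENSMUSG00000018930) lies 13.2 kb beyond *Ccl3* on the opposite strand (chr11:83662584-83664683). It had 3.48, 14.7 and 6.10 CPM in ARG1- females, 7.64, 5.55 and 6.22 CPM in ARG1- males, 28.2, 20.5 and 24.0 CPM in ARG1+ females and 33.2, 15.3 and 19.9 CPM in ARG1+ males. The populations did not overlap, although ARG1- female replicate 2 came close to ARG1+ male replicate 12. The mean rose from 7.28 ± 3.88 to 23.5 ± 6.41 CPM (SD, n = 6 each), a log2 fold change of 1.70 (SE 0.32, 95% interval 0.99 to 2.40, adjusted p = 0.0049, edgeR), or 3.25-fold. Counts of *Ccl3* stood to those of *Ccl4* at 1.04 to 1.55 in ARG1+ and 0.70 to 1.82 in ARG1- libraries, so that their proportion overlapped between the populations.

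*Ccl12* (ENSMUSG00000035352), a monocyte chemoattractant protein of mice, lies 1469.5 kb before *Ccl9* on the forward strand of the same chromosome (chr11:82101845-82103400). It had 47.2, 95.7 and 74.1 CPM in ARG1- females and 92.9, 85.3 and 73.4 CPM in ARG1- males. In ARG1+ females it had 36.4, 41.1 and 46.3 CPM, and in ARG1+ males 53.5, 22.9 and 39.3 CPM. The ranges overlapped in a single place, where ARG1+ male replicate 11 lay above ARG1- female replicate 1. The mean fell from 78.1 ± 17.7 to 39.9 ± 10.3 CPM (SD, n = 6 each), a log2 fold change of -0.97 (SE 0.21, 95% interval -1.43 to -0.50, adjusted p = 0.0101, edgeR). No member had all ARG1+ libraries below all ARG1- libraries, a pattern found in 6.56% of genes tested.

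The 250 bases before the RefSeq starts of *Ccl3*, *Ccl12* and *Ccl9* are shown because the first rose, the second fell and the third did not pass the test. They were taken from the RefSeq promoter table of GRCm38.p6, which held a window for 5 of the 9 members, and are written 5′ to 3′ on the strand of the gene, at chr11:83649379-83649628 for *Ccl3* (reverse), chr11:82101595-82101844 for *Ccl12* (forward) and chr11:83578637-83578886 for *Ccl9* (reverse). The RefSeq start of *Ccl3* lies 23 bases upstream of the GENCODE start given with its position above, and those of the other 4 are the same in both annotations. Capitals mark the matches to the 6 motifs searched on both strands.
Ccl3: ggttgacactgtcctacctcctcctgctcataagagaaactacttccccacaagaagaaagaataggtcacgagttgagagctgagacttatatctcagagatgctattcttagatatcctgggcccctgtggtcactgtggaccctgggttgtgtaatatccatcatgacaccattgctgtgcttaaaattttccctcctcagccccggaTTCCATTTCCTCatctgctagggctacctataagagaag
Ccl12: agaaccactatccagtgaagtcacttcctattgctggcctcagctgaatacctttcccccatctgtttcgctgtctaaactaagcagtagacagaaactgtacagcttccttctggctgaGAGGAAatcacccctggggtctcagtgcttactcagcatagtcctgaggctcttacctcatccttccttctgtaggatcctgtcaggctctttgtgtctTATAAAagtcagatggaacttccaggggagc
Ccl9: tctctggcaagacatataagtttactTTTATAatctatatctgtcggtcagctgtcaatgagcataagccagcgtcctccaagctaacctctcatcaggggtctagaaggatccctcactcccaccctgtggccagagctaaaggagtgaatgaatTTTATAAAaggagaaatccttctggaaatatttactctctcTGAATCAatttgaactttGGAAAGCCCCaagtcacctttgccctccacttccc

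The motifs were TATAAA (the TATA box), TGANTCA (AP-1), GAGGAA (the core of PU.1 sites), TTGCNNAA (C/EBP), GAAANNGAA (the core of the interferon-stimulated response element) and the NF-kB site, given by its name. In the *Ccl3* window a PU.1 core and an interferon element core overlapped by 3 bases on the reverse strand, from 39 to 28 bases before the RefSeq start. The *Ccl12* window held a TATA box from 31 to 26 bases and a PU.1 core from 130 to 125 bases before the start. The *Ccl9* window held 3 matches to the TATA box, of which a pair overlapped on opposite strands, besides 1 AP-1 and 1 NF-kB match. Of 32851 promoter windows of this length, 12.4% held TATAAA, 6.75% TGANTCA, 23.3% GAGGAA, 9.56% TTGCNNAA, 7.13% GAAANNGAA and 7.25% the NF-kB site. The *Cxcl10* window held 1 interferon element core, 1 AP-1 match and 4 NF-kB matches, 3 of which overlap one another (a pair at the same bases on opposite strands), and the *Ccl6* window held no match. These matches are letters in a window and say nothing of binding.

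The monocyte chemoattractant ligands *Ccl2* and *Ccl7* were low in both populations. *Ccl2* (ENSMUSG00000035385, chr11:82035571-82037453) ranged from 3.23 to 7.70 CPM (median 5.04) in ARG1+ and from 1.62 to 9.49 CPM (median 3.91) in ARG1- libraries, and the ARG1+ range lay inside the ARG1- range. Its log2 fold change was 0.19 (95% interval -0.80 to 1.17, adjusted p = 0.83, edgeR). *Ccl7* (ENSMUSG00000035373, chr11:82045712-82047525) ranged from 0.441 to 2.89 CPM (median 1.37) in ARG1+ and from 0.840 to 4.95 CPM (median 1.67) in ARG1- libraries, again with overlap. Its log2 fold change was -0.36 (95% interval -1.44 to 0.71, adjusted p = 0.679, edgeR). Both intervals are wide beside those of the abundant members, and a change that lies within them was not detectable with this spread between libraries.

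The CCR1 ligands *Ccl6* and *Ccl9* were the most abundant members by CPM. *Ccl6* (ENSMUSG00000018927, chr11:83587882-83593087) ranged from 93.7 to 221 CPM (median 181) in ARG1+ and from 108 to 186 CPM (median 148) in ARG1- libraries. ARG1+ male replicate 12 held the lowest value and ARG1+ male replicate 11 the highest. The log2 fold change was 0.22 (95% interval -0.20 to 0.65, adjusted p = 0.495, edgeR). *Ccl9* (ENSMUSG00000019122, chr11:83572919-83578636) kept to 158 to 174 CPM in the 6 ARG1- libraries (165 ± 6.28, SD), whereas ARG1+ libraries ran from 61.1 to 179 CPM (141 ± 42.0). The wide ARG1+ range came from ARG1+ male replicate 12, and the next lowest value was 135 CPM. The log2 fold change was -0.23 (95% interval -0.66 to 0.19, adjusted p = 0.478, edgeR), and it was -0.04 without ARG1+ male replicate 12.

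Of the CXC members, *Cxcl16* (ENSMUSG00000018920, chr11:70453983-70459984) ranged from 42.8 to 68.9 CPM (median 59.3) in ARG1+ and from 24.5 to 60.4 CPM (median 48.7) in ARG1- libraries. The 3 ARG1+ females, at 65.5 to 68.9 CPM, lay above all other libraries. The log2 fold change was 0.32 (95% interval -0.12 to 0.76, adjusted p = 0.32, edgeR). *Cxcl10* (ENSMUSG00000034855, chr5:92346638-92348889) ranged from 1.79 to 13.1 CPM (median 4.12) in ARG1+ and from 1.14 to 15.6 CPM (median 3.62) in ARG1- libraries. A single female library was high in each population, ARG1+ replicate 8 and ARG1- replicate 2, and each lay above the other 5 libraries of its population. The log2 fold change was 0.08 (95% interval -1.24 to 1.39, adjusted p = 0.95, edgeR).

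Some reads of these genes cannot be assigned with certainty. No stretch of 75 bases in the transcripts of the 7 CC members occurred in a transcript of another gene, whereas 2.74% of such stretches of *Cxcl10* were shared with *Art3* and 18.2% of those of *Cxcl16* with *Zmynd15*, each on the opposite strand. The strand setting of the counting is not given in the sources used here. The log2 fold change of *Zmynd15* was 0.73 (adjusted p = 0.084, edgeR), and its part in the *Cxcl16* counts was not tested.

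**Figure D2:**
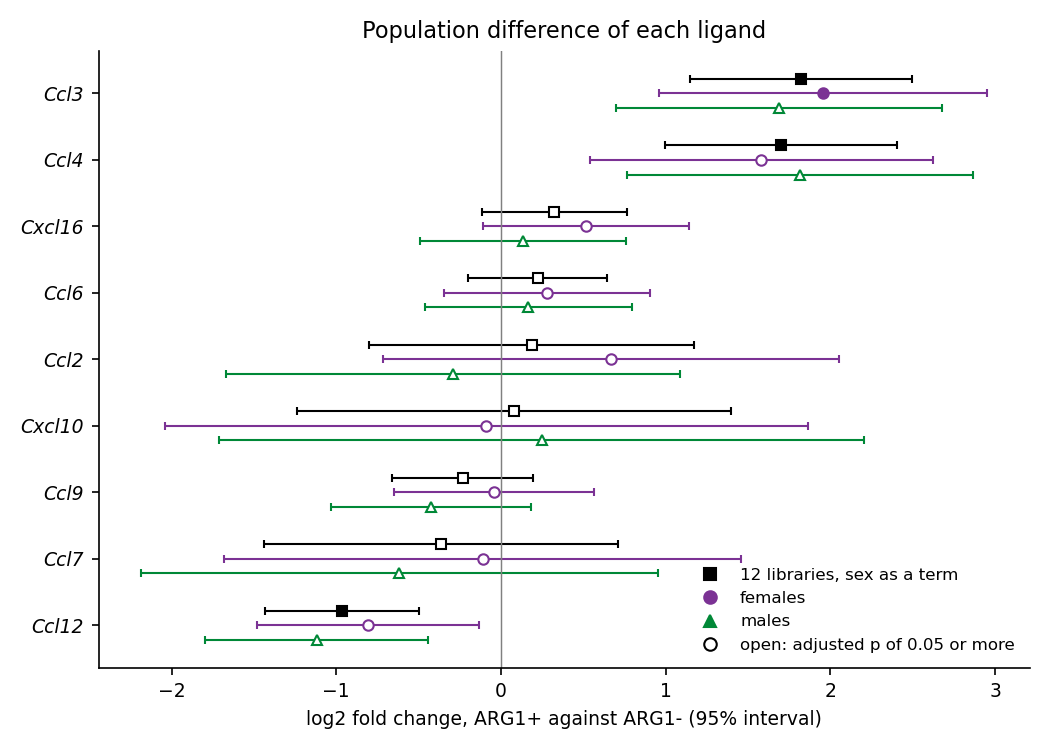
Log2 fold change of each ligand, ARG1+ against ARG1-, with its 95% interval over all 12 libraries with sex as a term (squares), in females (circles) and in males (triangles); filled symbols have an adjusted p under 0.05. *Ccl3* and *Ccl4* lie right of 0 and *Ccl12* left of 0 in all 3 comparisons, and the intervals of the females and males overlap for every ligand.

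The second comparison asked whether the population difference holds in each sex and whether it differs between the sexes. In females *Ccl3* alone passed the limit, with 8.30 ± 3.66 CPM in ARG1- and 32.2 ± 4.31 CPM in ARG1+ microglia (SD, n = 3 each, log2 fold change 1.96, adjusted p = 0.0299, edgeR), where 6.76% of all genes passed. This call held in 6 of the 12 fits that left out 1 library and was lost in those without female replicate 1, 13, 7, 8 or 15 or male replicate 16, with an adjusted p of up to 0.094 (edgeR). For *Ccl4* the female log2 fold change was 1.58 (adjusted p = 0.0701, edgeR), and without ARG1- female replicate 2 it was 2.33 (adjusted p = 0.0273, edgeR). For *Ccl12* it was -0.81 (adjusted p = 0.139, edgeR). At an unadjusted p under 0.05 the females gave *Ccl3*, *Ccl4* and *Ccl12*, where 22.9% of all genes reached that limit by edgeR. DESeq2's Wald test called *Ccl3* and *Ccl4* in females. In males 0 members passed by edgeR's quasi-likelihood test, where 5.13% of all genes passed. At an unadjusted p under 0.05 the males gave 3 members, *Ccl3*, *Ccl4* and *Ccl12*, where 22.8% of all genes reached that limit by edgeR. DESeq2's Wald test called the same 3 members in males. The share of all genes called by DESeq2's Wald test is not given here for any comparison, so counts of its calls stand without a background. The male log2 fold changes were 1.69 for *Ccl3* (adjusted p = 0.0547, edgeR), 1.82 for *Ccl4* (adjusted p = 0.0526, edgeR) and -1.12 for *Ccl12* (adjusted p = 0.0589, edgeR). When 1 library was left out, *Ccl3* passed in males without ARG1- male replicate 5 (log2 fold change 2.25, adjusted p = 0.033, edgeR), *Ccl4* without ARG1- female replicate 1 or 2, and *Ccl12* without ARG1- female replicate 1 or ARG1+ male replicate 11.

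The difference between the sexes was tested as an interaction, in which 0 of 16908 genes (0%) passed by edgeR and 1576 genes had an unadjusted p under 0.05. No member reached an unadjusted p under 0.05 by edgeR or by DESeq2, and the smallest was 0.302 by edgeR, that of *Ccl2*, and 0.262 by DESeq2's Wald test. The male minus female difference of the log2 fold change was -0.27 for *Ccl3* (95% interval -1.63 to 1.09), 0.23 for *Ccl4* (95% interval -1.20 to 1.67) and -0.31 for *Ccl12* (95% interval -1.26 to 0.64). A sex difference within these intervals was not detectable with 3 libraries per group.

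Levels of different ligands were compared per kilobase of merged exons. In ARG1- microglia the order was *Ccl12* (145 ± 33.0 CPM per kb), *Ccl6* (82.4 ± 15.5), *Ccl9* (54.1 ± 2.06), *Cxcl16* (15.1 ± 4.49), *Ccl4* (11.03 ± 5.87), *Ccl3* (10.97 ± 5.06), *Ccl2* (3.89 ± 2.64), *Ccl7* (2.81 ± 1.82) and *Cxcl10* (2.38 ± 2.31). Neighbours in this order did not overlap between *Ccl6* and *Ccl9* and between *Ccl9* and *Cxcl16*, and overlapped at all other steps, although *Ccl12* lay above *Ccl6* in each of the 6 libraries. In ARG1+ microglia the order was *Ccl6* (96.0 ± 25.01 CPM per kb), *Ccl12* (74.3 ± 19.1), *Ccl9* (46.4 ± 13.8), *Ccl3* (38.9 ± 10.03), *Ccl4* (35.6 ± 9.71), *Cxcl16* (19.2 ± 3.45), *Ccl2* (4.34 ± 1.43), *Cxcl10* (2.45 ± 1.85) and *Ccl7* (2.07 ± 1.21). There the steps from *Ccl4* to *Cxcl16* and from *Cxcl16* to *Ccl2* were free of overlap. *Ccl6* lay above *Ccl12* in each of the 6 ARG1+ libraries, so that these ligands exchanged the first place, and *Ccl3* and *Ccl4* passed *Cxcl16*. By rank among 16879 genes with a length, the level per kilobase of *Ccl3* moved from place 4379 in ARG1- to place 1135 in ARG1+ microglia, and that of *Ccl12* from place 284 to place 515.

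The summed level of the 9 members differed between the populations by less than its SD, at 477 ± 105 CPM in ARG1+ and 464 ± 56.0 CPM in ARG1- libraries (SD, n = 6 each), with ARG1+ male replicate 12 lowest at 276.0 CPM. What differed was the makeup of this sum. *Ccl3* took 6.28% ± 0.85 of it in ARG1+ and 1.78% ± 0.67 in ARG1- libraries, and *Ccl12* took 8.34% ± 0.62 and 16.7% ± 2.31 (SD, n = 6 each). The ratio of *Ccl3* to *Ccl12* counts within a library does not depend on the scaling between libraries. Chosen after the values were seen, it was 0.606 to 0.832 (median 0.77) in ARG1+ and 0.0593 to 0.15 (median 0.108) in ARG1- libraries, with no overlap.

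**Figure D3:**
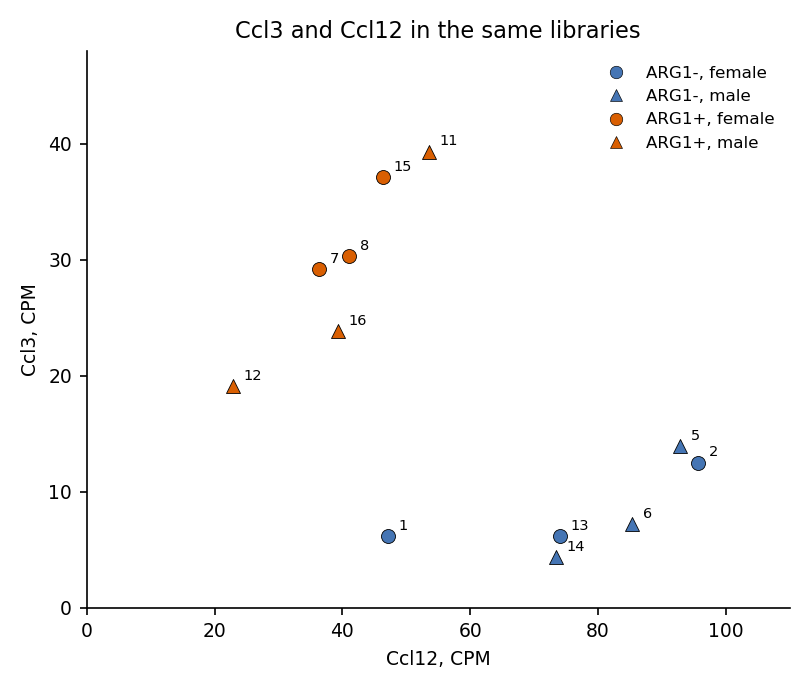
*Ccl3* against *Ccl12* in CPM, 1 point per library with its replicate number (circles, females; triangles, males; blue, ARG1-; orange, ARG1+), both axes from 0. The ARG1+ libraries lie above 19 CPM of *Ccl3* and below 54 CPM of *Ccl12*, and ARG1+ male replicate 12 is the lowest of them on both axes.

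All 7 CC members were lowest, among ARG1+ libraries, in ARG1+ male replicate 12, and neither of the 2 CXC members was. The ratio of *Ccl3* to *Ccl12* counts in that library was 0.832, the highest of the ARG1+ libraries. Without this library the log2 fold change was 1.96 for *Ccl3*, 1.81 for *Ccl4* and -0.80 for *Ccl12* (adjusted p = 0.0185, edgeR), and all 3 stayed past the limit.

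Members also differ in length, and fold changes in these data moved with gene length. The median log2 fold change of protein-coding genes was -0.65 for the 381 genes with up to 1 kb of exons, -0.46 for the 1430 genes of 1 to 2 kb, -0.15 for the 3874 genes of 2 to 4 kb and 0.19 for the 6979 longer genes. Among the shortest, 34.4% fell and 0.787% rose in ARG1+ microglia. *Ccl12* is 537 bases long, *Ccl4* 660, *Ccl3* 766 and *Ccl7* 801. *Ccl3* and *Ccl4* rose against the direction of the other short genes, and *Ccl12* fell with them, inside the quartiles of its length class (-1.01 to -0.12). When the length trend of each library was removed, an alternative chosen after seeing the data, the log2 fold change was 2.04 for *Ccl3* (adjusted p = 0.00123, edgeR), 1.91 for *Ccl4* (adjusted p = 0.00237, edgeR) and -0.79 for *Ccl12* (adjusted p = 0.019, edgeR). What gives rise to the length trend was not tested.

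**Figure D4:**
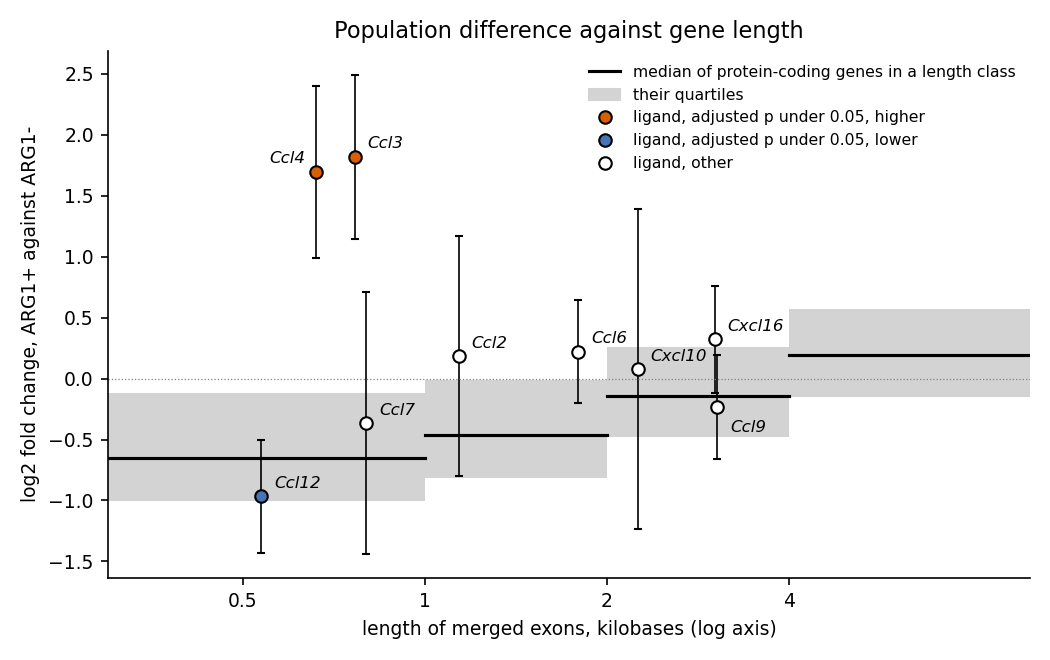
Log2 fold change, ARG1+ against ARG1-, against the length of merged exons in kilobases on a log axis; points are the 9 ligands with 95% intervals, and black lines and grey bands are the median and quartiles of protein-coding genes in 4 length classes. The medians rise from -0.65 to 0.19 with length, *Ccl3* and *Ccl4* lie far above the band of their class, and *Ccl12* lies inside it.

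By position, the 7 CC members form 2 groups on chromosome 11. In the first, *Ccl2*, *Ccl7* and *Ccl12* lie within 67.8 kb on the same strand, and *Ccl11* between them reached at most 2 counts and *Ccl8* beyond them at most 9 counts in a library. In the second, *Ccl9* and *Ccl6* start 47.1 and 62.1 kb beyond the first base of *Ccl5*, followed by *Ccl3* and *Ccl4* at 122.1 and 136.8 kb. *Ccl5*, a ligand that T cells and macrophages make, had 1.11 ± 0.891 CPM in ARG1+ and 1.59 ± 1.66 CPM in ARG1- libraries (SD, n = 6 each), and its log2 fold change of -0.53 (SE 1.04, adjusted p = 0.782, edgeR) did not pass. The rise was thus found in the neighbours *Ccl3* and *Ccl4*, and was not detected in *Ccl9*, *Ccl6* or *Ccl5* of the same group.

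**Figure D5:**
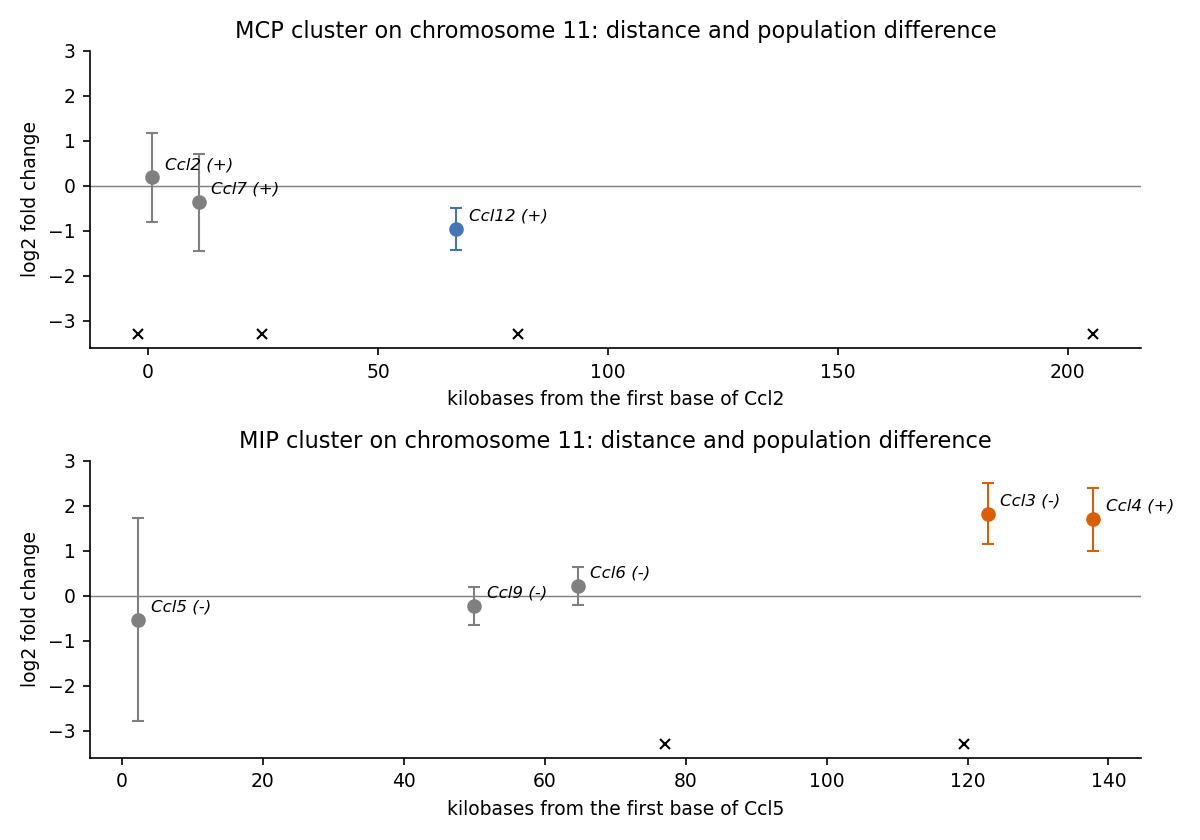
Log2 fold change with 95% interval of the genes tested in the 2 groups of CC ligand genes on chromosome 11, against the distance in kilobases from the first base of *Ccl2* or *Ccl5*; the strand stands in brackets, colored points have an adjusted p under 0.05 and crosses mark annotated genes that were not tested. In the upper panel *Ccl12* lies below 0 and in the lower panel *Ccl3* and *Ccl4* lie above 0.

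Most other ligands of the family were too low to be tested. Of 31 other chemokine ligands, 30 had a position on a chromosome, 10 of these had no count in any library and 11 were tested. Of the 11, 0 were higher and 0 were lower by edgeR, 1 gene (*Cxcl9*) had an unadjusted p under 0.05, and DESeq2's Wald test called the same gene. *Cxcl9*, an interferon-induced ligand of CXCR3, ranged from 0 to 1.11 CPM in ARG1+ and from 0.0669 to 4.70 CPM in ARG1- libraries (adjusted p = 0.127, edgeR). The most abundant was *Ccl24*, an eosinophil chemoattractant also made by border macrophages, at 10.2 to 48.6 CPM in ARG1+ and 5.55 to 24.2 CPM in ARG1- libraries (log2 fold change 0.47, adjusted p = 0.521, edgeR). Neutrophil chemoattractants were at or near the limit of detection, with no count of *Cxcl1* or *Cxcl5* in any library and at most 5 counts of *Cxcl2*. The median log2 fold change of the 11 was -0.19.

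Of 23 chemokine receptors, 17 were tested, of which 0 rose and 1 fell in ARG1+ microglia by edgeR, beside 6.44% and 9.42% of all genes tested. The median log2 fold change of the receptors was 0.04. At an unadjusted p under 0.05 there were 3 receptors, and DESeq2's Wald test called *Cxcr2* and *Cxcr4* higher besides. *Ccr1*, a receptor of CCL3, CCL6 and CCL9, ranged from 26.7 to 83.1 CPM (median 52.8) in ARG1+ and from 127 to 224 CPM (median 178) in ARG1- libraries, with no overlap. Its log2 fold change was -1.79 (SE 0.22, adjusted p = 6.5e-04, edgeR). *Ccr1* was thus lower where *Ccl3* was higher, and it kept its call in each of the 12 fits that left out 1 library and in 9 other settings.

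The receptors of the other members were low. *Ccr2* ranged from 0.484 to 4.63 CPM in ARG1+ and from 0.0669 to 4.86 CPM in ARG1- libraries (adjusted p = 0.929, edgeR). *Cxcr3*, the receptor of CXCL10, ranged from 0.541 to 6.28 and from 1.95 to 6.76 CPM (adjusted p = 0.856, edgeR). *Ccr3* had 0 to 5.18 CPM and 0 to 16.2 CPM (adjusted p = 0.434, edgeR), and *Cxcr6*, the receptor of CXCL16, had 0 to 1.11 CPM and 0 to 1.75 CPM (adjusted p = 0.563, edgeR). In all 4 the ARG1+ and ARG1- ranges overlapped. The most abundant receptor was *Cx3cr1*, used in the sort, at 4798 ± 809 CPM in ARG1+ and 4587 ± 800 CPM in ARG1- libraries (SD, n = 6 each). Of the enzymes that cut chemokines, *Adam17* was higher (412 ± 40.5 to 536 ± 86.8 CPM, adjusted p = 0.043, edgeR), and *Adam10*, which sheds CXCL16 and was the more abundant, did not pass at 627 ± 81.2 and 710 ± 122 CPM (adjusted p = 0.357, edgeR). The call of *Adam17* was lost with the length trend removed, where its log2 fold change went from 0.38 to 0.14 (adjusted p = 0.351, edgeR), with no filter and with a term for libraries 13 to 16, and of the 12 fits that left out 1 library it held in the 3 without replicate 1, 15 or 11.

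Signalling genes upstream of chemokines were read from 3 lists. For comparison with their counts, 6.44% of all genes tested were higher in ARG1+ microglia and 9.42% were lower. Of 13 NF-kB pathway genes, all tested, 2 were higher and 1 was lower, with a median log2 fold change of 0.14. *Ikbkb*, the catalytic kinase of the pathway, had 65.4 to 103 CPM in ARG1- and 117 to 175 CPM in ARG1+ libraries, without overlap (log2 fold change 0.73, adjusted p = 0.00396, edgeR), and *Chuk*, its partner kinase, rose from 65.9 ± 16.7 to 101 ± 18.5 CPM (adjusted p = 0.0338, edgeR). *Nfkbia*, the inhibitor that NF-kB itself induces, fell from 95.8 ± 6.85 to 71.2 ± 14.8 CPM (adjusted p = 0.0329, edgeR). *Nfkb1*, the most abundant by CPM, did not pass (log2 fold change -0.37, adjusted p = 0.0613, edgeR). None of the 3 calls held once the length trend was removed. *Ikbkb* then went from a log2 fold change of 0.73 to 0.13 (adjusted p = 0.568, edgeR), *Chuk* from 0.60 to 0.48 (adjusted p = 0.118, edgeR) and *Nfkbia* from -0.44 to -0.21 (adjusted p = 0.223, edgeR). When 1 library was left out, *Ikbkb* kept its call in all 12 fits, *Chuk* in the 2 without replicate 14 or 12, and *Nfkbia* in the 3 without replicate 5, 14 or 11, and *Nfkbia* also lost it with no filter (adjusted p = 0.0799, edgeR).

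Of 15 interferon response genes, 1 was higher and 2 were lower, with a median log2 fold change of -0.11. *Ifit2* rose from 12.9 ± 5.82 to 29.3 ± 11.4 CPM (adjusted p = 0.0364, edgeR). *Bst2* fell from 62.1 ± 7.71 to 42.5 ± 8.99 CPM (adjusted p = 0.0294, edgeR) and *Ifitm3* from 21.4 ± 6.07 to 10.8 ± 3.61 CPM (adjusted p = 0.03, edgeR). *Irf9*, a transcription factor of the interferon response and the most abundant of the list in ARG1+ and ARG1- libraries, had 114.5 ± 15.7 CPM in ARG1- and 91.5 ± 12.1 CPM in ARG1+ libraries (adjusted p = 0.0823, edgeR). These calls lay near the limit and were lost in most of the 12 fits that left out 1 library. *Ifit2* held in the 4 without replicate 2, 15, 14 or 11, with an adjusted p of at most 0.0911 in the others (edgeR). *Bst2* held in the 5 without replicate 1, 13, 15, 14 or 11, and *Ifitm3* in the 5 without replicate 1, 13, 8, 15 or 14. With no filter the adjusted p was 0.0672 for *Bst2* and 0.0507 for *Ifitm3*, and with the length trend removed it was 0.133 and 0.0732 (edgeR).

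Of 16 immediate early and stress genes, 15 were tested, 2 were higher and 0 were lower, with a median log2 fold change of 0.49. *Egr1*, a transcription factor induced within minutes of stimulation, rose from 7.86 ± 3.45 to 19.4 ± 2.97 CPM without overlap (log2 fold change 1.31, adjusted p = 0.00825, edgeR). *Atf3*, a stress-induced factor, rose from 17.6 ± 9.21 to 32.8 ± 9.37 CPM (log2 fold change 0.99, adjusted p = 0.0401, edgeR). The call of *Atf3* held in 3 of the 12 fits that left out 1 library, those without replicate 2, 8 or 15, and the adjusted p reached 0.0871 in the others and 0.0613 in the model without sex (edgeR). *Btg2*, the most abundant, had 156 ± 34.2 and 165 ± 20.5 CPM (adjusted p = 0.734, edgeR). DESeq2's Wald test called 5 genes of this list. Dissociation and sorting are known to induce immediate early genes in microglia, and the part of such a response in the levels of *Ccl3* and *Ccl4* was not tested.

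Markers of other cells that make chemokines were read in the same libraries. Of 10 border macrophage genes, 6 were tested, 0 were called by edgeR or DESeq2 and 0 had an unadjusted p under 0.05 by edgeR, and their summed level was 128 to 249 CPM in ARG1+ and 119 to 151 CPM in ARG1- libraries. Most of it was *Mrc1*, which encodes the CD206 used to exclude cells in the sort, at 102 to 231 and 100.3 to 138 CPM, whereas *Cd163*, *Lyve1* and *Clec10a* were at 0 in all ARG1- libraries and at most at 0.715 CPM in ARG1+ libraries. Of 8 monocyte genes, 3 were tested and *Plac8* was lower in ARG1+ microglia (0.378 to 2.29 against 4.08 to 9.08 CPM, adjusted p = 0.00466, edgeR), with a summed level of 1.93 to 6.70 and 5.12 to 14.1 CPM. Of 9 neutrophil genes, *Csf3r* and *Cxcr2* were tested, neither passed by edgeR and both had an unadjusted p under 0.05 and were called higher by DESeq2, and *Ly6g* and *Retnlg* had no count. Of 9 T and NK cell genes, *Cd3d*, *Cd3e*, *Cd3g*, *Cd4* and *Cd8a* had no count, and *Klrb1c* was called higher from at most 34 counts in a library and none in ARG1- libraries. The summed levels of astrocyte genes were 128 to 147 CPM in ARG1+ and 163 to 219 CPM in ARG1- libraries, with *Slc1a3* lower in ARG1+ microglia. Those of endothelial genes were 39.6 to 83.5 and 29.8 to 57.5 CPM, of neuron genes 1.81 to 7.54 and 6.93 to 13.1 CPM, and of oligodendrocyte genes 57.1 to 117 and 80.2 to 174 CPM, with 0 genes called in the last 3 lists by edgeR. DESeq2 called 1 gene in each of these 3 (*Pecam1*, *Map2* and *Mag*), and at an unadjusted p under 0.05 edgeR gave 1, 0 and 2 genes. The part of these cells in the ligand levels was not tested.

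For each member, the 2 genes with the most similar log2 CPM across the 12 libraries were found by Pearson's r, given as a description over libraries that share depth and population. *Ccl3* was closest to *AI427809* (r = 0.96) and *Rap1gap* (r = 0.96), and *Ccl4* to *Fsbp* (r = 0.94) and to *Ccl3* itself (r = 0.93). After population and sex were removed, *Ccl3* and *Ccl4* had r = 0.69. Each was closer to *Ccl12*, which was lower in ARG1+ microglia (r = 0.722 for *Ccl3* and 0.79 for *Ccl4*). The member closest to *Ccl3* was then *Cxcl16* (r = 0.726), which did not pass the test. *Ccl12* was closest to *Sub1* (r = 0.97) and *Sf3b6* (r = 0.97), genes of transcription and splicing, which had 92.4 and 26.7 CPM in ARG1+ and 182 and 54.8 CPM in ARG1- libraries. For the others the closest were *Gm19510* and *Gkap1* (*Ccl2*), *Atf1* and *Cntd1* (*Ccl6*), *Gm21399* and *Cenpp* (*Ccl7*), *Eloc* and *Mapre1* (*Ccl9*), *Spg20* and *Gm49004* (*Cxcl10*), and *Tmem107* and *Brms1l* (*Cxcl16*), with r from 0.81 to 0.96. Among members, *Ccl6* and *Ccl7* had r = 0.97 over the 12 libraries after population and sex were removed, the highest of the 36 pairs.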

How the data were processed

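Complementary DNA was made with SMART-Seq reagents and turned into libraries with Nextera XT. The submitters' processing notes name bcl2fastq 2.20.0, STAR 2.6.1d, featureCounts 1.5.1 and DESeq2 1.28.1 with GRCm38. The values the authors deposited are raw counts per gene for 12 libraries, without normalization, and 0 columns were left unused. Symbols, positions and exon lengths came from GENCODE M21, which matched 55227 of 55487 identifiers.

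Counts were filtered with filterByExpr on the 4 groups, scaled with TMM factors and tested by the quasi-likelihood functions glmQLFit and glmQLFTest of edgeR 4.0.16 (R 4.3.3), checked beforehand on simulated counts. Females, males and their interaction were contrasts of the 4 group means. Standard errors were derived from each log2 fold change and its F value. Similarity between genes used log2 CPM with a prior count of 2. Fold changes by length use merged exons.

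The members and gene lists were chosen with earlier results of these data known. Named genes are the members, genes of a list past the limit, its most abundant gene, the receptors of the members and the 2 genes most similar to each member, and other genes were named after their values were seen. The alternatives were other size factors, filters, models and DESeq2 1.42.0, thinned counts, the libraries of 1 sex alone, longest transcripts, each library left out in turn and, added after seeing the data, removal of the length trend. The results of some genes are not reported here.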

Additional observations from a re-analysis of the deposited data

Results flagged for a closer look

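In the 9 members and 2 populations, 18 groups of 6 libraries were searched for a library that stands apart from the rest, by Dixon's ratio of its gap to the range. Chance gives about 1 in 20 groups, or 0.9 of 18, and 2 were found. Groups of the same population share their libraries and are not independent, and both finds lay in a single library. ARG1- female replicate 2 had 14.7 CPM of *Ccl4*, where the next highest ARG1- library had 7.64 CPM. The same library had 15.6 CPM of *Cxcl10*, where the next highest had 5.48 CPM. Without this library the log2 fold change was 2.04 for *Ccl4* and 0.74 for *Cxcl10*, and the latter did not pass the test.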

How the results depend on the processing

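*Ccl3*, *Ccl4* and *Ccl12* kept their direction and an adjusted p under 0.05 in the comparison over all 12 libraries in each of the 12 fits that left out 1 library and in 9 other settings. The log2 fold change ranged from 1.70 to 2.08 for *Ccl3*, from 1.54 to 2.04 for *Ccl4* and from -1.08 to -0.79 for *Ccl12*. The calls within a sex were less stable. In females, 2 members were higher with at least 10 counts in every library, with DESeq2's Wald test and with the length trend removed, and 0 to 2 when 1 library was left out. In males, 2 members were higher with the same 3 settings and 0 to 1 when 1 library was left out, and 1 member was lower with at least 10 counts and with DESeq2's Wald test and 0 to 1 when 1 library was left out. DESeq2's Wald test called 1 other ligand lower and 2 receptors higher. When 1 library was left out, 0 to 2 receptors were higher. The cause of these changes was not tested. Signs that turned belonged to values that never passed: *Ccl2* ranged from -0.019 to 0.54 and *Cxcl10* from -0.34 to 0.74 when 1 library was left out, *Ccr2* from -0.17 to 0.90 and *Cxcr3* from -0.38 to 0.068. With the length trend removed *Ccr2* was at -0.051 and *Cxcr3* at 0.054. *Adam17*, *Bst2*, *Ifitm3* and the 3 NF-kB pathway genes lost their call with the length trend removed. No paired analysis was possible because the labels do not say which libraries came from the same pool of mice, and the groups share no replicate number.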
